A study of Mus musculus with 30 samples.

Results

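GRHL2 is a Grainyhead family transcription factor that binds enhancers of epithelial genes, including genes of cell junctions, and can act on DNA packed in nucleosomes. KMT2C and KMT2D are related histone methyltransferases that mark enhancers with monomethylated lysine on histone H3 and help to recruit the machinery that starts transcription. The comparison described here sets the RNA response to GRHL2 in mouse embryonic stem cells without either enzyme against the response in cells without KMT2C, early after GRHL2 is activated. For each gene it is the tamoxifen response of double-KO cells (Kmt2cKO; Kmt2dKO) minus the tamoxifen response of Kmt2c-KO cells (Kmt2cKO with floxed Kmt2d alleles), all at 8 h, called below the difference of responses. It uses 12 of the 30 libraries of the study, and all 12414 genes that passed a filter on low values, of 12428 in the deposited table.

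All 12 libraries came from naive embryonic stem cells (C57BL/6J x 129) that lack Kmt2c and carry GRHL2-ERT, a fusion of GRHL2 to an estrogen receptor domain that tamoxifen releases into the nucleus. The medium held serum and LIF together with inhibitors of MEK and of GSK3. The groups, with 3 libraries each, were double-KO cells with tamoxifen for 8 h, double-KO cells with ethanol for 8 h, Kmt2c-KO cells with tamoxifen for 8 h and Kmt2c-KO cells with ethanol for 8 h. Kmt2c-KO cells without GRHL2-ERT and with tamoxifen for 8 h (3 libraries) show levels without the transgene. No cells with intact Kmt2c are among the groups. The labels state that clones were picked for comparable GRHL2 expression, but not how many clones stand for a line or whether replicates were separate cultures, so loss of KMT2D cannot be told apart from other differences between clones, and each p measures only the spread between these libraries.

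Libraries were made from tags at the 3' ends of transcripts, so values are CPM, shares of all tags of a library, and show levels of RNA. Recovered depth was 8.86 to 22.1 M reads, and 3 reads in 1 library stood for 0.136 to 0.339 CPM, a limit that covers counting error only. All 10 embryonic stem cell markers were detected in every group, with a summed level of 5035 to 5587 CPM in double-KO tamoxifen libraries, 5063 to 5181 CPM in double-KO ethanol libraries, 9095 to 10377 CPM in Kmt2c-KO tamoxifen libraries and 8239 to 9941 CPM in Kmt2c-KO ethanol libraries. Of the 10 fibroblast feeder markers 5 were measured (Col1a1, Col1a2, Thy1, Acta2 and Tagln), and Col3a1, Lum, Dcn, Postn and Pdgfrb were not. The 5 summed to 193 to 248 CPM in double-KO tamoxifen libraries and 197 to 219 CPM in double-KO ethanol libraries. They summed to 31.6 to 43.7 CPM in Kmt2c-KO tamoxifen libraries and 20.9 to 34.0 CPM in Kmt2c-KO ethanol libraries. Acta2 and Tagln are also on the mesenchymal list used below. In double-KO and Kmt2c-KO tamoxifen libraries, primitive endoderm markers (7 of 10 measured) summed to 21.8 to 26.4 and 5.45 to 8.22 CPM. Neural progenitor markers (5 of 8) summed to 96.3 to 112 and 37.1 to 43.4 CPM, and trophoblast markers (5 of 8) to 77.7 to 98.9 and 107 to 118 CPM. In the ethanol libraries of the same lines, primitive endoderm markers summed to 29.6 to 35.2 and 6.65 to 9.76 CPM. Neural progenitor markers summed there to 143 to 167 and 60.1 to 82.5 CPM, and trophoblast markers to 72.7 to 88.3 and 89.7 to 123 CPM. Sums were lower in tamoxifen without overlap for neural progenitors in both lines and for primitive endoderm in double-KO cells, and overlapped otherwise. In bulk RNA, fewer cells of a type and less RNA per cell cannot be told apart.

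The double-KO tamoxifen libraries stood apart. Replicate 2 was the shallowest library, had 7.37% of its tags on the ribosomal RNA gene Rn45s, and correlated over genes with its own replicates 1 and 3 at 0.951 and 0.925. Replicate 3 correlated with double-KO ethanol replicates 1 and 2 at 0.988 and 0.989, above its 0.979 and 0.925 with replicates 1 and 2 of its own group, and ethanol replicate 3 was closest to tamoxifen replicate 1, at 0.987. These correlations are across genes, which are not independent replicates. The labels name no batch. Results are therefore also given without replicate 2 of the double-KO tamoxifen group.

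Grhl2 tags, which the transgene may also give, were 58.6, 125 and 51.2 CPM in double-KO tamoxifen libraries, 39.1, 32.4 and 52.2 CPM in double-KO ethanol libraries, 162, 159 and 189 CPM in Kmt2c-KO tamoxifen libraries and 210, 158 and 165 CPM in Kmt2c-KO ethanol libraries. Every double-KO library was below every Kmt2c-KO library, so the amount of Grhl2 RNA and the Kmt2d genotype cannot be told apart in these comparisons. Without the transgene the level was 2.66 ± 0.83 CPM (SD, n = 3). Esr1, the estrogen receptor gene whose tags the fusion may also give, ran from 1.02 to 15.8 CPM in double-KO tamoxifen libraries and from 10.2 to 18.5 CPM in double-KO ethanol libraries, against 41 to 62.8 CPM in Kmt2c-KO tamoxifen libraries and 15.5 to 51.9 CPM in Kmt2c-KO ethanol libraries. The difference of responses did not pass for Grhl2 (0.88; limma adjusted p = 0.13) or Esr1 (-2.07; limma adjusted p = 0.089). Both depend on 1 library: without double-KO tamoxifen replicate 3 the differences passed, at 1.12 for Grhl2 (limma adjusted p = 0.0195) and -2.76 for Esr1 (limma adjusted p = 0.00262), and without replicate 2 they were 0.49 and -1.23 and did not pass. Kmt2d had 7.77, 7.79 and 6.30 CPM in double-KO tamoxifen libraries, 9.69, 13.6 and 5.77 CPM in double-KO ethanol libraries, 14.2, 9.88 and 10.4 CPM in Kmt2c-KO tamoxifen libraries and 15.2, 23.4 and 16.1 CPM in Kmt2c-KO ethanol libraries. The double-KO libraries were below the Kmt2c-KO libraries of the same treatment, and tags remained. A 3' tag outside the deleted part could give such tags, but this was not tested, so they do not check the Kmt2d allele. Kmt2c tags, at 16.9 to 32.8 CPM over the 12 libraries, likewise do not check the Kmt2c allele.

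At 8 h the response of double-KO cells was lower than that of Kmt2c-KO cells for 112 genes (0.902% of genes tested) and higher for 65 genes (0.524%), which makes 177 genes (1.43%), by limma with a Benjamini-Hochberg adjusted p under 0.05. Among the lower genes were a Wnt ligand (Wnt7b), an acyl-CoA synthetase (Acsl5), an aldehyde dehydrogenase (Aldh3b2) and junction genes (Cgn, Cldn6, Perp), and among the higher genes were the pluripotency genes Utf1, Sox2, Zfp42 and Tcl1. The differences reached a size of 1 on the log2 scale, 2-fold, for 92 of the lower and 32 of the higher genes. Of all genes tested, 3090 had an unadjusted p under 0.05. Without double-KO tamoxifen replicate 2 there were 70 lower and 30 higher genes, of which 85 were among the 177, and without replicate 3 there were 2181 lower and 909 higher genes, which included all 177. Leaving out any 1 of the 12 libraries gave 38 to 2181 lower and 16 to 909 higher genes. With libraries weighted by their quality 6 lower and 3 higher genes passed, and with the 12 libraries fitted alone 4 lower and 1 higher.

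The 112 lower genes had a median difference of -1.37, from a median log2 response of -0.31 in double-KO cells and 0.94 in Kmt2c-KO cells. In tamoxifen the median of double-KO over Kmt2c-KO cells was -0.50, and in ethanol it was 0.75, against 0.18 and 0.31 over all genes tested. The 65 higher genes had a median difference of 0.98, from responses of 0.27 in double-KO cells and -0.80 in Kmt2c-KO cells. Their medians of double-KO over Kmt2c-KO cells were 0.30 in tamoxifen and -0.78 in ethanol. Both sets were chosen by a difference made of these same values, so the choice itself pushes their medians apart. The medians of both sets are a description only. Over all genes tested the median difference was -0.10, with 57.7% of genes below 0, and it was -0.01 with median-of-ratios scaling. Just inside the threshold lay Zfp219 (0.93) and Nup43 (-1.0), and just outside lay Qars (-0.53) and 2210013O21Rik (0.73).

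**Figure D1:**
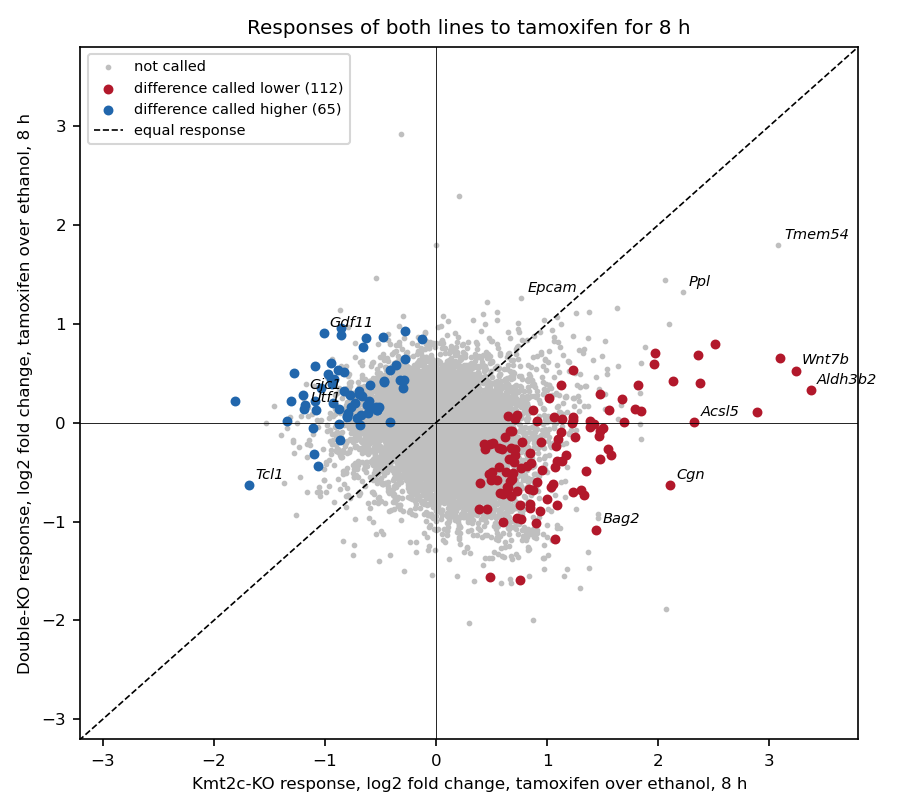
Log2 fold change of tamoxifen over ethanol at 8 h in double-KO cells (vertical axis) and in Kmt2c-KO cells (horizontal axis), 1 point per gene. The 112 genes called lower (red) lie mostly right of 0 and near or below 0 on the vertical axis, and the 65 called higher (blue) lie mostly left of 0, while Tmem54, Ppl and Epcam rose in both lines.

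A metabolic enzyme had the most negative of the called differences. Aldh3b2, an aldehyde dehydrogenase (mm10 chromosome 19, 3972328 to 3981646), had 0.795, 0 and 0.109 CPM in double-KO tamoxifen libraries and 0 CPM in all double-KO ethanol libraries, against 8.96, 10.5 and 8.77 CPM in Kmt2c-KO tamoxifen libraries and 0 CPM in all Kmt2c-KO ethanol libraries. The Kmt2c-KO tamoxifen libraries stood far above all others, and Aldh3b2 was also at 0 in all 3 tamoxifen libraries without GRHL2-ERT. The difference was -3.04 ± 0.28 (SE; limma adjusted p = 1.9e-07) on the log2(CPM + 1) scale, whose pseudocount sets the size for a gene at 0.

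Acsl5, which activates long-chain fatty acids (chromosome 19, 55251938 to 55297720), had 6.61, 6.66 and 7.27 CPM in double-KO tamoxifen libraries and 8.03, 5.17 and 7.59 CPM in double-KO ethanol libraries, against 25.3, 25.3 and 23.5 CPM in Kmt2c-KO tamoxifen libraries and 2.56, 4.96 and 5.35 CPM in Kmt2c-KO ethanol libraries. The groups overlapped in double-KO cells and were well apart in Kmt2c-KO cells. Its difference was -2.32 ± 0.30 (limma adjusted p = 8.3e-05). Sord, a sorbitol dehydrogenase, averaged 12.1 ± 2.5 CPM in tamoxifen and 7.11 ± 1.53 CPM in ethanol in double-KO cells, and 29.5 ± 1.65 CPM in tamoxifen and 5.09 ± 1.63 CPM in ethanol in Kmt2c-KO cells (SD, n = 3 each). Both lines thus had higher Sord levels in every tamoxifen library, with a smaller step in double-KO cells (difference -1.67 ± 0.27; limma adjusted p = 0.0012). Elovl6, a fatty acid elongase, had a smaller difference of -0.77 ± 0.18 (limma adjusted p = 0.026).

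A list of fatty acid and aldehyde metabolism, which also holds Sord, had 17 tested genes. Those 4 were lower, 0 were higher and 13 did not pass, with a median difference of -0.45. The gene lists were chosen with earlier results of these data known. Beside each list count stand the shares of all genes tested, 0.902% lower and 0.524% higher. The 4 calls also passed without double-KO tamoxifen replicate 2, with the median of the list then at -0.22, and without replicate 3 the list had 7 lower and 3 higher genes. Without replicate 3, 2181 of all 12413 genes tested were lower and 909 were higher, which stand beside every list count in that setting. Of 24 tested cholesterol synthesis genes, Sc5d and Msmo1, which act late in the pathway, were lower (-1.22 and -0.58), 0 were higher and 22 did not pass (median -0.36). Without replicate 2 only Sc5d of this list passed, and without replicate 3 the list had 8 lower and 0 higher genes.

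Among secreted ligands and receptors, Wnt7b (chromosome 15, 85535437 to 85582473) had 1.28, 2.15 and 1.19 CPM in double-KO tamoxifen libraries and 0.343, 0.862 and 1.11 CPM in double-KO ethanol libraries, against 20.2, 17.6 and 24.6 CPM in Kmt2c-KO tamoxifen libraries and 1.13, 1.22 and 1.54 CPM in Kmt2c-KO ethanol libraries. Tamoxifen libraries were above ethanol libraries in both lines, with means of 1.54 and 0.773 CPM in double-KO cells and 20.8 and 1.30 CPM in Kmt2c-KO cells. The difference was -2.71 ± 0.34 (limma adjusted p = 5.2e-05). Il17re, a subunit of an interleukin 17 receptor, had 1.22, 1.35 and 0.489 CPM in double-KO tamoxifen libraries and 0.489, 0.408 and 0.607 CPM in double-KO ethanol libraries, against 5.41, 6.30 and 4.06 CPM in Kmt2c-KO tamoxifen libraries and 0.178, 0.245 and 0.162 CPM in Kmt2c-KO ethanol libraries. Its groups overlapped in double-KO cells only, and the difference was -1.97 ± 0.30 (limma adjusted p = 9.3e-04). Wnt7b was the 1 lower gene among 18 tested genes of Wnt, EGF and BMP signalling, where 0 were higher and the median was -0.55. Wnt4, another Wnt ligand, had a difference of -1.05 (limma adjusted p = 0.096) and the BMP target Id1 one of -1.23 (limma adjusted p = 0.079).

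The tight junction gene Cgn encodes cingulin, a cytoplasmic plaque protein (chromosome 3, 94760069 to 94786492). It had 2.2, 0.790 and 4.78 CPM in double-KO tamoxifen libraries and 4.80, 5.67 and 2.18 CPM in double-KO ethanol libraries, against 31.7, 42.5 and 22.7 CPM in Kmt2c-KO tamoxifen libraries and 3.45, 10.6 and 7.14 CPM in Kmt2c-KO ethanol libraries. The double-KO groups overlapped and the Kmt2c-KO groups did not (difference -2.74 ± 0.50; limma adjusted p = 0.0044). Cldn6, a claudin of early embryos, had 7.52, 7.34 and 10.6 CPM in double-KO tamoxifen libraries and 7.69, 4.44 and 6.99 CPM in double-KO ethanol libraries, against 37.1, 36.5 and 38.4 CPM in Kmt2c-KO tamoxifen libraries and 7.38, 13.8 and 9.33 CPM in Kmt2c-KO ethanol libraries. Again only the Kmt2c-KO groups were apart, with a difference of -1.44 ± 0.34 (limma adjusted p = 0.029), and the adjusted p was 0.051 without double-KO tamoxifen replicate 2.

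Perp, a desmosome component (chromosome 10, 18845020 to 18857073), had 87.8, 47.4 and 71.6 CPM in double-KO tamoxifen libraries and 71.5, 65.5 and 65.3 CPM in double-KO ethanol libraries, against 29.6, 28.0 and 31.5 CPM in Kmt2c-KO tamoxifen libraries and 10.8, 8.63 and 12.2 CPM in Kmt2c-KO ethanol libraries. Its level was higher in every double-KO library than in any Kmt2c-KO library, and tamoxifen libraries were apart from ethanol libraries in Kmt2c-KO cells alone: the log2 response was -0.01 in double-KO cells and 1.42 in Kmt2c-KO cells (difference -1.43 ± 0.22; limma adjusted p = 9.3e-04). Of 18 tested tight junction and polarity genes 2 were lower, 0 were higher and 16 did not pass (median -0.39). Of 15 tested adhesion and desmosome genes 2 were lower, 0 were higher and 13 did not pass (median -0.14). Of 7 tested keratins 0 passed in either direction. The junction list without double-KO tamoxifen replicate 3 had 5 lower and 1 higher, the adhesion list 4 lower and 1 higher, and the keratins again 0.

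**Figure D2:**
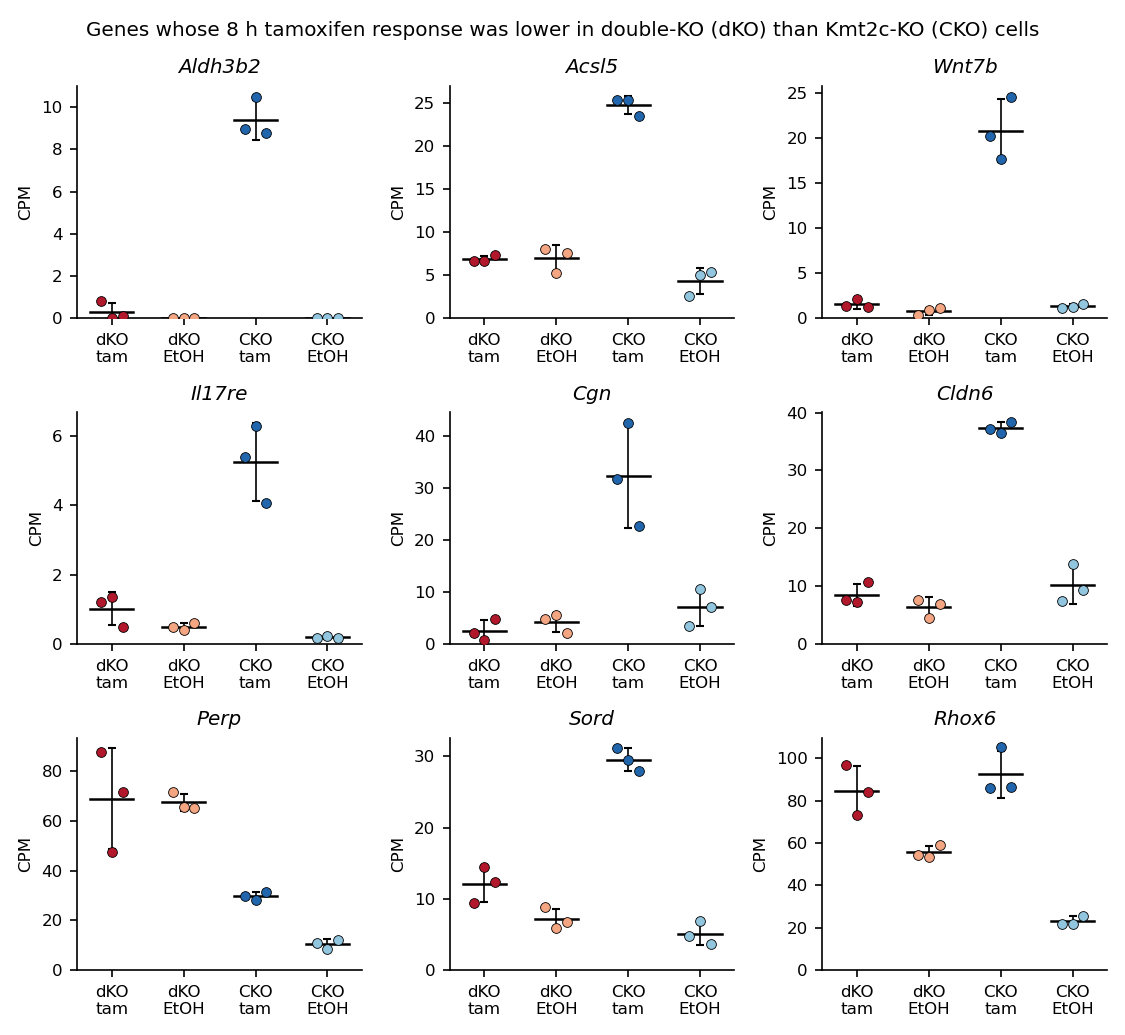
CPM of 9 genes called lower in the difference of responses, with 1 point per library, the mean as a bar and the SD over 3 libraries as error bars, for double-KO cells (dKO) and Kmt2c-KO cells (CKO) in tamoxifen (tam) and ethanol (EtOH) at 8 h. For Aldh3b2, Acsl5, Wnt7b, Il17re, Cgn, Cldn6 and Sord the Kmt2c-KO tamoxifen libraries stand above the other 3 groups, whereas for Perp and Rhox6 the double-KO ethanol libraries stand above the Kmt2c-KO ethanol libraries.

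Lower differences also held for regulators whose ethanol level was higher in double-KO cells. Rhox6, an X-linked homeobox gene of a multigene cluster in which tags of near copies may be split, had 96.8, 73.2 and 84.1 CPM in double-KO tamoxifen libraries and 54.3, 53.5 and 59.1 CPM in double-KO ethanol libraries, against 85.9, 105 and 86.5 CPM in Kmt2c-KO tamoxifen libraries and 21.7, 21.6 and 25.7 CPM in Kmt2c-KO ethanol libraries. Tamoxifen and ethanol libraries were apart in both lines, and the lines overlapped in tamoxifen (difference -1.37 ± 0.23; limma adjusted p = 0.0021). Gata2, a zinc finger factor of trophoblast and blood, and Dlx3, a homeobox factor of placenta and skin, had differences of -1.84 and -1.69. Gata2 ran from 6.55 to 21.3 CPM over the double-KO tamoxifen libraries and from 11 to 21.6 CPM over the double-KO ethanol libraries, against 9.09 to 15.5 CPM in Kmt2c-KO tamoxifen libraries and 2.92 to 6.49 CPM in Kmt2c-KO ethanol libraries. Without double-KO tamoxifen replicate 2 the limma adjusted p was 0.064 for Gata2 and 0.088 for Dlx3.

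Rhox6, Gata2 and Dlx3 were the lower genes among 16 tested trophoblast genes, where 0 were higher (median -0.40), and only Rhox6 of them passed without that replicate, whereas 4 of the list were lower without replicate 3. Gata2 and Dlx3 were also the lower genes among 10 tested epithelial regulators, where 0 were higher (median -0.52). Esrp1, an epithelial splicing regulator, had 2.06 ± 0.71 CPM in tamoxifen and 0.545 ± 0.395 CPM in ethanol in double-KO cells, and 27.7 ± 1.1 CPM in tamoxifen and 5.85 ± 1.70 CPM in ethanol in Kmt2c-KO cells (SD, n = 3 each). Its tamoxifen libraries were above its ethanol libraries in both lines, and its difference of -1.11 did not pass (limma adjusted p = 0.099). Of 14 tested protease and trafficking genes Mal2, a membrane protein of apical transport, was lower (-1.49) and 0 were higher, and this call was lost without that replicate (limma adjusted p = 0.12).

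For some of the other genes with very negative differences the response value in double-KO cells was below 0, though it did not pass the test in that line. Bag2, a co-chaperone of HSP70, had 5.81, 2.15 and 14 CPM in double-KO tamoxifen libraries and 20.4, 13.7 and 8.66 CPM in double-KO ethanol libraries, against 3.33, 2.59 and 3.14 CPM in Kmt2c-KO tamoxifen libraries and 0.773, 0.796 and 0 CPM in Kmt2c-KO ethanol libraries. The double-KO groups overlapped, with tamoxifen replicate 3 above ethanol replicate 3, and the difference of -2.53 (limma adjusted p = 0.025) was -1.97 without tamoxifen replicate 2 (limma adjusted p = 0.051). Its response value was -1.08 in double-KO cells and 1.45 in Kmt2c-KO cells. The calls of Msrb3, a methionine sulfoxide reductase (-2.04), Ifnlr1, a receptor of lambda interferons (-1.92), and Hspa1b, an HSP70 gene with a near-identical copy (-1.92), were lost without that replicate as well. The calls of Bnipl (-2.44), Plac8 (-2.25), Car12, a carbonic anhydrase (-2.07), H2-D1, a class I histocompatibility gene with near-identical relatives (-1.99), Mmp11, a matrix metalloproteinase (-1.94), and Plcd1, a phospholipase C (-1.91), were kept. Among the genes named here with Bag2, Bnipl alone had a response value above 0 in double-KO cells (0.65).

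Among pluripotency genes, Utf1, a chromatin-associated factor of stem cells (chromosome 7, 139943789 to 139945112), had 19.4, 20.5 and 21.2 CPM in double-KO tamoxifen libraries and 17.7, 16.4 and 21.4 CPM in double-KO ethanol libraries, against 22.6, 24.6 and 25.2 CPM in Kmt2c-KO tamoxifen libraries and 58.2, 51.9 and 59.3 CPM in Kmt2c-KO ethanol libraries. The Kmt2c-KO ethanol libraries were the high group, and the double-KO groups overlapped. The difference was 1.33 ± 0.18 (limma adjusted p = 1.0e-04). Sox2, a core pluripotency factor (chromosome 3, 34650405 to 34652461), had 112, 118 and 111 CPM in double-KO tamoxifen libraries and 113, 93.5 and 100.1 CPM in double-KO ethanol libraries, against 197, 195 and 212 CPM in Kmt2c-KO tamoxifen libraries and 303, 299 and 278 CPM in Kmt2c-KO ethanol libraries. It was lower in every double-KO library than in any Kmt2c-KO library, and tamoxifen libraries were apart from ethanol libraries in Kmt2c-KO cells alone (difference 0.70 ± 0.14; limma adjusted p = 0.011).

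Zfp42, the naive-state marker REX1, had 942, 1672 and 905 CPM in double-KO tamoxifen libraries and 791, 841 and 971 CPM in double-KO ethanol libraries, against 504, 491 and 533 CPM in Kmt2c-KO tamoxifen libraries and 839, 701 and 771 CPM in Kmt2c-KO ethanol libraries. Double-KO tamoxifen replicate 2 was far above the rest, and the difference of 0.97 was 0.69 without it (limma adjusted p = 0.0026). Tcl1, a co-activator of AKT kinase, fell in Kmt2c-KO cells (log2 response -1.69; limma adjusted p = 3.5e-07), had a log2 response of -0.63 in double-KO cells, where it was below 2.1 CPM in every library, and gave a difference of 1.05 (limma adjusted p = 0.034). Of 21 tested naive pluripotency genes, Sox2, Zfp42 and Tcl1 were higher, 0 were lower and 18 did not pass, with a median of 0.07. This list had 5 higher and 3 lower genes and a median of -0.13 without double-KO tamoxifen replicate 3. In that setting 909 of all 12413 genes tested were higher and 2181 were lower. Of 17 tested formative and primed genes, Utf1 and the ETS factor Etv5 (0.74) were higher and 0 were lower (median 0.14), and the call of Etv5 was lost without double-KO tamoxifen replicate 2 (limma adjusted p = 0.074).

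Among the genes that the naming rule takes, positive differences were largest for Gdf11 (1.92), a TGF-beta family ligand, Etnk2 (1.81), an ethanolamine kinase, the noncoding RNA Platr26 (1.78), Chst15 (1.73), a sulfotransferase, and Tssk6 (1.66) and Sgk2 (1.55), a pair of protein kinases. They were followed by Rap1gap (1.52), which turns off the small GTPase RAP1, the receptor kinase Axl (1.48), the gap junction gene Gjc1 (1.47) and Mc1r (1.46), a melanocortin receptor. Rap1gap had 6.05, 7.0 and 3.37 CPM in double-KO tamoxifen libraries and 4.01, 5.62 and 3.75 CPM in double-KO ethanol libraries, against 3.88, 3.71 and 4.71 CPM in Kmt2c-KO tamoxifen libraries and 12.9, 9.43 and 12.6 CPM in Kmt2c-KO ethanol libraries. As for Utf1, the Kmt2c-KO ethanol libraries alone were high. Without double-KO tamoxifen replicate 2 the calls of Platr26, Tssk6, Rap1gap and Gjc1 were kept, at 1.51 for Platr26, 1.77 for Tssk6, 1.3 for Rap1gap and 1.08 for Gjc1. Those of Gdf11, Etnk2, Chst15, Sgk2, Axl and Mc1r were lost, with differences of 1.75, 1.63, 1.35, 1.33, 1.13 and 1.16. Each of these was smaller than with that replicate, while the kept difference of Tssk6 was larger.

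Tamoxifen alone, in Kmt2c-KO cells without GRHL2-ERT, is a further control, beside which the ethanol libraries with GRHL2-ERT can be set. On the log2(CPM + 1) scale the mean without GRHL2-ERT was nearer to the ethanol mean of GRHL2-ERT Kmt2c-KO cells for 35 of the 42 named genes with a called difference, and nearer to their tamoxifen mean for 7, which were Msrb3, Gdf11, Platr26, Chst15, Tssk6, Sgk2 and Sc5d. Among the first, Acsl5 had 4.98 ± 1.15 CPM, Wnt7b 1.45 ± 0.56 CPM, Cgn 7.41 ± 1.62 CPM and Cldn6 11.6 ± 3.65 CPM (SD, n = 3 each), against 4.29 ± 1.51, 1.30 ± 0.22, 7.06 ± 3.57 and 10.2 ± 3.3 CPM in GRHL2-ERT Kmt2c-KO cells with ethanol. Utf1 had 66.4 ± 3.5 CPM and Sox2 306 ± 12 CPM without GRHL2-ERT, against 56.5 ± 4.0 and 294 ± 13 CPM with it in ethanol. Among the 7, Tssk6 had 0.431 ± 0.318 CPM with tamoxifen without GRHL2-ERT and 0.326 ± 0.140 CPM with tamoxifen and GRHL2-ERT, against 1.89 ± 0.86 CPM with ethanol. Platr26 had 5.92 ± 1.22 and 3.61 ± 0.59 CPM in the same tamoxifen groups, against 10.2 ± 1.6 CPM in ethanol, and Sc5d had 12 ± 0.8 and 17.1 ± 1.8 CPM, against 7.41 ± 1.61 CPM. Rap1gap, at 7.73 ± 1.74 CPM without GRHL2-ERT, lay between its 4.10 ± 0.53 CPM in tamoxifen and 11.6 ± 1.9 CPM in ethanol, and Id1, whose difference did not pass, had 26.9 ± 4.2 CPM without GRHL2-ERT and 28.3 ± 4.4 CPM with it in tamoxifen, against 17.7 ± 0.8 CPM in ethanol. For these genes the mean without the transgene was shifted from the ethanol mean toward the tamoxifen mean, though for Rap1gap it stayed nearer to ethanol. The part of this in their differences was not tested. The 42 genes were chosen by a difference that holds the same ethanol and tamoxifen means, so the counts of 35 and 7 are a description only. The 30 libraries of the study include no double-KO cells without GRHL2-ERT, and no ethanol libraries of cells without GRHL2-ERT. Tamoxifen alone thus cannot be told apart here from other differences between the lines with and without GRHL2-ERT.

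**Figure D3:**
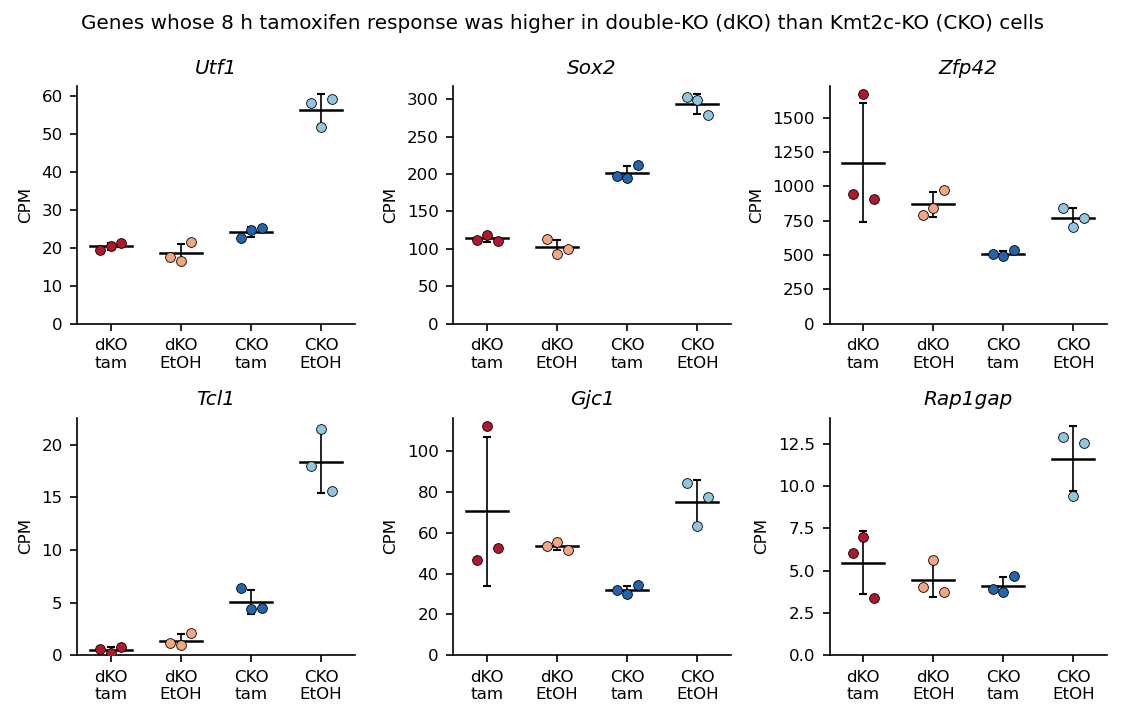
CPM of 6 genes called higher in the difference of responses, drawn as in the plot of genes called lower, with double-KO groups left of Kmt2c-KO groups. Utf1, Sox2, Tcl1 and Rap1gap were highest in the Kmt2c-KO ethanol libraries, and double-KO tamoxifen replicate 2 stands above its group for Zfp42 and Gjc1.

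Some lists gave single calls or none. Sparc, a matrix protein, was the 1 higher gene of 17 tested mesenchymal genes (0.67, with 0 lower) and was lost without double-KO tamoxifen replicate 2 (limma adjusted p = 0.088). Apela, a ligand of the apelin receptor, was the 1 higher gene of 14 tested Nodal pathway genes (0.62, with 0 lower). Apela had 247, 200.1 and 213 CPM in double-KO tamoxifen libraries and 277, 294 and 325 CPM in double-KO ethanol libraries, against 75.5, 78.4 and 77.5 CPM in Kmt2c-KO tamoxifen libraries and 180.0, 151 and 156 CPM in Kmt2c-KO ethanol libraries, so tamoxifen libraries were below ethanol libraries in both lines. Of 17 genes of COMPASS and UTX complexes, to which KMT2C and KMT2D belong, and of 16 enhancer co-activator genes, 0 passed in either direction. Without double-KO tamoxifen replicate 3, however, 5 of the COMPASS and UTX genes were lower and 0 higher, and 1 of the co-activator genes was lower and 3 were higher. Of all 12413 genes tested in that setting, 2181 were lower and 909 were higher.

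**Figure D4:**
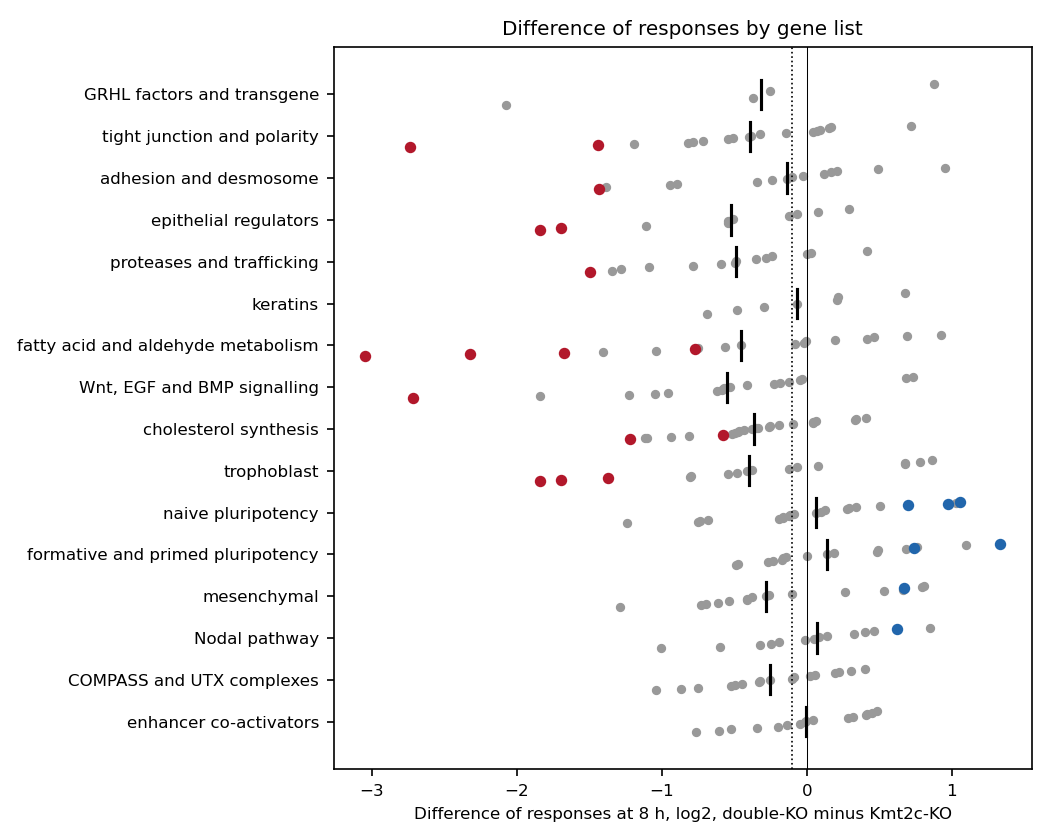
Difference of responses at 8 h (log2, double-KO minus Kmt2c-KO) of the tested members of 16 gene lists, without 1 gene that is not reported here, 1 point per gene, with genes called lower in red, called higher in blue and the rest in grey. Bars mark list medians and the dotted line marks the median of all genes tested (-0.10); the 4 red points of fatty acid and aldehyde metabolism include the lowest value of any list.

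The responses of each line give the context. In double-KO cells 12 genes (0.0967%) passed at 8 h, and in Kmt2c-KO cells 615 genes (4.95%) did, 362 upward (2.92%) and 253 downward (2.04%). Without double-KO tamoxifen replicate 3 the double-KO response had 3146 called genes, and without replicate 1 of that group 106. The 8 genes that rose in double-KO cells (0.0644%) were Anxa9, an annexin, Arap2, a GTPase regulator, Cldn4, a claudin, Epcam, an epithelial adhesion molecule, Fabp3, a fatty acid carrier, Ppl, a plakin of desmosomes, Tmem54 and Wfdc2. The 4 that fell (0.0322%) were Ccnd3, a D-type cyclin, Gm13889, Lefty2, an inhibitor of Nodal signalling, and the neural adhesion molecule Ncam1.

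Epcam had 35.8, 50.5 and 51.4 CPM in double-KO tamoxifen libraries and 20.4, 17.6 and 17.1 CPM in double-KO ethanol libraries, against 86.0, 82.6 and 75.6 CPM in Kmt2c-KO tamoxifen libraries and 44.0, 55.6 and 43.4 CPM in Kmt2c-KO ethanol libraries. Tamoxifen libraries were higher in both lines, with log2 responses of 1.26 in double-KO cells and 0.77 in Kmt2c-KO cells, and the difference of 0.49 ± 0.21 did not pass (limma adjusted p = 0.15). Tmem54 had 4.46, 3.84 and 2.66 CPM in double-KO tamoxifen libraries and 0.245, 0.771 and 0.0506 CPM in double-KO ethanol libraries, against 9.57, 11.3 and 13.8 CPM in Kmt2c-KO tamoxifen libraries and 0.178, 0.429 and 0.892 CPM in Kmt2c-KO ethanol libraries. Its groups were apart in both lines, replicates 2 and 3 of the double-KO tamoxifen group included, and its difference of -1.28 ± 0.35 lay close to the threshold (limma adjusted p = 0.056). Wfdc2, a secreted protease inhibitor family member, was the 1 of these 12 genes with a called difference (0.97; limma adjusted p = 0.037), with responses of 0.85 in double-KO cells and -0.12 in Kmt2c-KO cells. It had 39.0, 56.1 and 24.2 CPM in double-KO tamoxifen libraries and 17.6, 20.5 and 23.9 CPM in double-KO ethanol libraries. Its double-KO response no longer passed without tamoxifen replicate 2.

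Genes were also picked in the 16 h libraries and then measured at 8 h. At 16 h, 36 genes rose in Kmt2c-KO cells (0.29% of genes tested) and 1 fell (0.00806%). At 8 h these genes had a median log2 response of 0.35 in double-KO cells and 1.33 in Kmt2c-KO cells, and a median difference of -1.05, against -0.10 over all genes tested. The difference was below 0 for 34 of the 36, and 15 were called lower and 0 higher, against 0.902% and 0.524% of all genes. These genes were chosen for their rise in Kmt2c-KO cells, whose response is the one subtracted, so the choice itself leans the difference to negative values. For the 17 genes with an average response of at least 1 over both lines at 16 h, the 8 h responses had medians of 0.36 in double-KO cells and 2.1 in Kmt2c-KO cells. Their difference had a median of -1.66, with 15 below 0, 1 above 0 (2.08), 7 called lower and 0 higher. The called genes of the set of 36 included, picked for their roles after their values were seen, Epn3, an endocytic adaptor (-1.71), Upk2, a uroplakin of bladder epithelium (-1.26), and the phosphatase gene Dusp9 (-0.66), beside Acsl5, Aldh3b2, Wnt7b, Sord, Cldn6 and Perp. Of the 36, Cldn4 was the 1 gene above 0 (0.17). Another 1, Plac9a, was at 0 because it had 0 CPM in every 8 h library. Without double-KO tamoxifen replicate 2 the median of the 36 was -1.06 and 14 were called lower.

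The same difference was measured at 16 h in 12 other libraries. There 0 genes (0%) passed in limma, and 315 had an unadjusted p under 0.05. Of the 112 genes lower at 8 h, 88 (78.6%) were below 0 at 16 h, where 47.9% of all genes were, with a median of -0.20. Of the 65 genes higher at 8 h, 50 (76.9%) were above 0 at 16 h, where 52.1% of all genes were, with a median of 0.13. An unadjusted p under 0.05 in the same direction was found for 17 of the lower genes (15.2%, against 1.03% of all genes below 0) and 3 of the higher genes (4.62%, against 1.51%).

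At 16 h Acsl5 averaged 13.8 ± 2.5 CPM in tamoxifen and 9.66 ± 0.61 CPM in ethanol in double-KO cells, and 12.5 ± 2.6 CPM in tamoxifen and 2.79 ± 0.69 CPM in ethanol in Kmt2c-KO cells (SD, n = 3 each). Its difference was -1.37 at 16 h, and those of Bnipl, Cldn6, Aldh3b2 and Perp were -1.47, -1.14, -1.12 and -0.94. Utf1 had a difference of 0.72. Of the 42 named genes with a called difference, 21 of the 25 lower were below 0 at 16 h and 11 of the 17 higher were above 0. The other 10 lay on the opposite side of 0, among them Platr26 (-0.50 at 16 h, against 1.78 at 8 h), Mc1r (-0.42), Rap1gap (-0.23), Ifnlr1 (0.30), Elovl6 (0.14) and Gata2 (0.07). The test of the 8 h against the 16 h difference itself passed for 0 genes in limma, with 923 at an unadjusted p under 0.05.

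**Figure D5:**
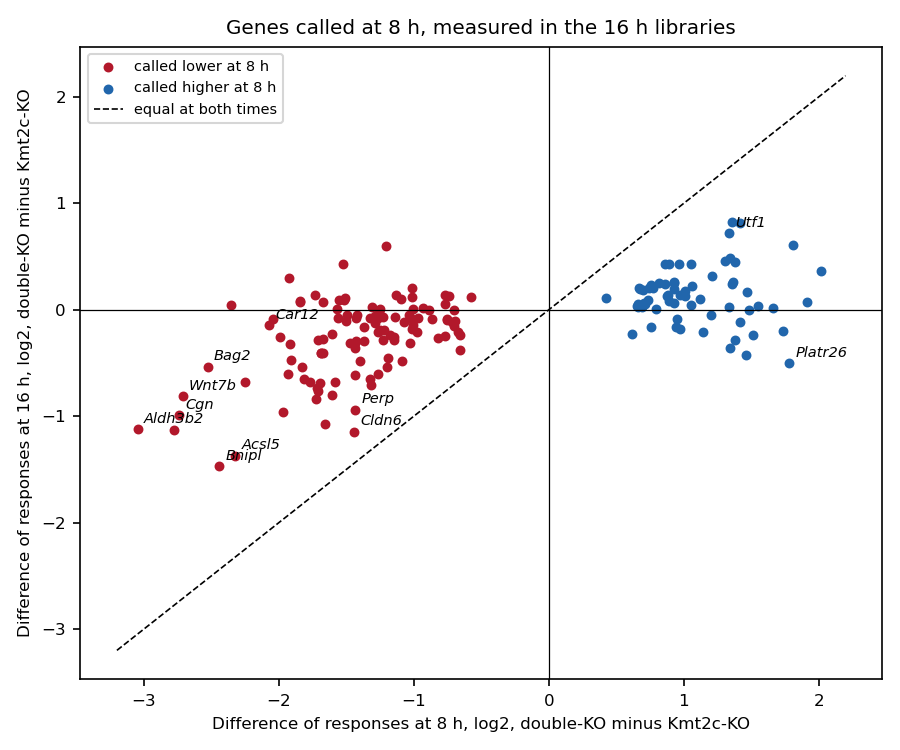
Difference of responses at 16 h (vertical axis) and at 8 h (horizontal axis), both log2, double-KO minus Kmt2c-KO, for the 112 genes called lower (red) and the 65 called higher (blue) at 8 h, with 1 point per gene. Most points keep their side of 0 and lie closer to 0 at 16 h than at 8 h, where the genes were selected.

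Promoters were searched for the GRHL binding motif. In RefSeq promoter windows of GRCm38.p6, with 250 bases before the annotated start and 50 after it, the letters AACCGGTT, which read the same on both strands, were found in 1 of 79 lower genes with a window, in 0 of 54 higher genes and in 31 of 9448 genes tested (0.328%). The one was Gulp1, an adaptor of cell engulfment with a difference of -1.56, named outside the naming rule after its value was seen. The looser form AACNNGTT, which includes the first and also reads the same on both strands, was found in 5 of 79 lower genes (6.33%), 4 of 54 higher genes (7.41%) and 3.97% of genes tested. Among the named genes called in the difference, Cgn and Sox2 hold it, and their windows are shown because one gene stands on each side of the comparison, with the matched letters in capitals. The Cgn window is chr3:94786433-94786732 on the minus strand with its match 29 bases before the start, and the Sox2 window is chr3:34649745-34650044 on the plus strand with its match 15 bases after the start. Starts here are those of RefSeq: for Sox2 it lies upstream of the GENCODE start given above, and the window ends before that start. A match is a description of the letters and not of binding.

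Cgn: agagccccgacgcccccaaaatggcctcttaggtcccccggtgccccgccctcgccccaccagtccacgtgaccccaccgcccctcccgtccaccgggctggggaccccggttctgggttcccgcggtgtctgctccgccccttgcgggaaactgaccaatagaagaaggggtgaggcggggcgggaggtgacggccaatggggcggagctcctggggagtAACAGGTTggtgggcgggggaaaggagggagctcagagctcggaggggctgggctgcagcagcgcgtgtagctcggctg
Sox2: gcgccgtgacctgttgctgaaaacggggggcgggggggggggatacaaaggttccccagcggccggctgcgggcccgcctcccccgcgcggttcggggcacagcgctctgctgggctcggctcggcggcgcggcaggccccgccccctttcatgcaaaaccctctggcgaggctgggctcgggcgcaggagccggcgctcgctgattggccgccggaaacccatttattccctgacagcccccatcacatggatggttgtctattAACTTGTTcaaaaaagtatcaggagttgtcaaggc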

How the data were processed

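The authors deposited log2 values of 12428 genes in 30 libraries, with no counts. Salmon, DESeq2 1.34.0 and the mm10 build are named in the submitters' processing notes without further settings, and the labels' protocols give 3' tag libraries read from a single end. The values were log2 of CPM plus an offset of 0.124871 and were returned to CPM. Between 94.9% and 97.6% of low values in the 12 libraries were whole reads within 0.05 reads. Columns of group means (10) and of differences (6) were not used.

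The test was limma 3.58.1 (R 4.3.3) on log2(CPM + 1) (trend, robust, a mean per group over 30 libraries, 20 residual degrees of freedom), for 12414 genes whose mean reached 1 CPM in some group, called at a two-sided Benjamini-Hochberg adjusted p under 0.05. Fold changes of low genes are understated on this scale. Count models, planned for raw counts, could not be applied to log2 values. The estimates of the fit were checked on simulated data with known changes. There each gene had the same independent spread in every library, so libraries that stand apart, as here, were not covered. Positions are from GENCODE mouse release 21.

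Named genes were the 16 most negative and 10 most positive called differences with a mean of 1 CPM or more in some group, a symbol that is not provisional and groups apart in a line, up to 4 members of each list by adjusted p, and Grhl2, Esr1, Kmt2c and Kmt2d. The rule also took 1 gene not reported here, which counts include. The comparison, the gene lists and the rule were chosen with earlier results of these data known. Alternatives were pseudocounts of 0.1 and 5, no filter, other scalings, the libraries of the contrast alone, array weights, a replicate block, a size of at least 1, and leaving out libraries.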

Additional observations from a re-analysis of the deposited data

Results flagged for a closer look

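The responses of the lines differed by a test of the difference itself, in limma with an adjusted p under 0.05, for 42 named genes. The difference of log2 responses at 8 h, double-KO minus Kmt2c-KO, was below 0 for the following genes. The 8 most negative were Aldh3b2 (-3.04), Cgn (-2.74), Wnt7b (-2.71), Bag2 (-2.53), Bnipl (-2.44), Acsl5 (-2.32), Plac8 (-2.25) and Car12 (-2.07). They were followed by Msrb3 (-2.04), H2-D1 (-1.99), Il17re (-1.97), Mmp11 (-1.94), Ifnlr1 (-1.92), Hspa1b (-1.92), Plcd1 (-1.91) and Gata2 (-1.84). Smaller negative differences were those of Dlx3 (-1.69), Sord (-1.67), Mal2 (-1.49), Cldn6 (-1.44), Perp (-1.43), Rhox6 (-1.37), Sc5d (-1.22) and Elovl6 (-0.77). The least negative was Msmo1 (-0.58). The difference was above 0 for the others. The 8 most positive were Gdf11 (1.92), Etnk2 (1.81), Platr26 (1.78), Chst15 (1.73), Tssk6 (1.66), Sgk2 (1.55), Rap1gap (1.52) and Axl (1.48). Smaller positive differences were those of Gjc1 (1.47), Mc1r (1.46), Utf1 (1.33), Tcl1 (1.05), Zfp42 (0.97), Etv5 (0.74), Sox2 (0.70) and Sparc (0.67). The least positive was Apela (0.62).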

How the results depend on the processing

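No called gene that is named reversed its direction under any of the 22 alternatives. Leaving out the filter, fitting the contrast alone and the replicate blocks cannot change a direction, since they keep the estimates. Aldh3b2, Wnt7b and Utf1 passed under all 22, and Acsl5 and Perp under 21. The fewest were 6 for Msmo1, 8 for Hspa1b and 9 for Etnk2 and Sparc. Leaving out 1 library each gave 38 to 2181 lower and 16 to 909 higher genes at 8 h, 320 to 1234 called genes in the Kmt2c-KO response, 4 to 3146 in the double-KO response, 0 to 1 in the 16 h difference and 0 to 3 in the 8 h minus 16 h difference. The lowest 8 h counts came without double-KO ethanol replicate 1 (38 lower, 22 higher) and Kmt2c-KO tamoxifen replicate 2 (43 lower, 16 higher), and the highest without double-KO tamoxifen replicate 3. Kmt2c-KO ethanol replicates 1 (46 lower, 17 higher) and 2 (441 lower, 168 higher), Kmt2c-KO tamoxifen replicate 1 (47, 25), double-KO ethanol replicates 2 (52, 19) and 3 (548, 199) and double-KO tamoxifen replicates 1 (302, 156) and 2 (70, 30) also moved them. The causes were not tested.

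Counts of lower and higher genes were 184 and 110 at pseudocount 5, 118 and 103 under median-of-ratios scaling, 109 and 91 with Rn45s out of the total, 92 and 32 at a size of at least 1, 20 and 2 without the libraries over 5% Rn45s, 6 and 3 with array weights, and 4 and 1 in the libraries of the contrast alone. Replicate numbers showed no clear pairing: deviations of tamoxifen and ethanol libraries of the same number correlated at -0.58 to 0.13 over 6 pairs, 1 over 0.1. With 3 libraries per group this check cannot decide whether libraries of equal number belong together. A replicate block within line and time gave 10 lower and 2 higher genes, and a block over all libraries 94 and 49. Of the 42 named calls, 9 passed with the block within line and time, 6 with array weights and 5 in the contrast alone. The Kmt2c-KO response had 1116 called genes with array weights, 299 with the block within line and time, 204 at a size of at least 1 and 309 without libraries over 5% Rn45s. The double-KO response had 36 with a pseudocount of 5, 0 in the contrast alone, 1 with array weights, 3 with the block within line and time and 5 at a size of at least 1. The 16 h difference had 18 with array weights, and the 8 h minus 16 h difference 2 with a pseudocount of 5. The median 8 h difference of the 36 genes induced at 16 h was -1.29 and -0.60 with pseudocounts of 0.1 and 5, -0.86 without libraries over 5% Rn45s, and -1.66 for the 17 genes with an average response of at least 1 over both lines at 16 h. Differences of genes that were not called changed sign for Grhl1 (0.089) and Kmt2d (-0.22) with array weights, and for Grhl3 (-0.59 to 0.022 with 1 library left out) with array weights (0.011), without libraries over 5% Rn45s (0.081) and without double-KO tamoxifen replicate 2 (0.022). Depth, with 3 reads at 0.136 to 0.339 CPM, limits genes under 1 CPM in ethanol.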
